A study of Mus musculus with 6 samples.

Results

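Lyz1, Lyz2 and Cpm are 3 of the 21878 genes in a table of RNA counts from tumour-associated macrophages of the mouse. They were chosen by name: the lysozyme pair because earlier results of these data showed Lyz2 lower and Lyz1 higher in KO, and Cpm as a gene further along the same chromosome. Their levels and KO-to-WT differences are therefore given as a description, without a test. The KO libraries (3) came from mice with floxed Trmt61a alleles and LysM-Cre, and the WT libraries (3) from mice with the same floxed alleles and no Cre. All mice carried tumours of MC38, a mouse colon carcinoma line, 14 days after its injection, and macrophages were sorted from them by flow cytometry. The labels do not say whether each library came from its own mouse, nor how many copies of the Cre the KO mice had.

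Lysozyme cuts the sugar backbone of bacterial cell walls. The mouse has a duplicated gene: Lyz2, or lysozyme M, is the form of macrophages and neutrophils, and Lyz1, or lysozyme P, is known from the Paneth cells of the small intestine. Cpm encodes carboxypeptidase M, a membrane-anchored enzyme that removes a terminal arginine or lysine from peptides, and in human it is a marker of monocytes that mature into macrophages. In LysM-Cre mice the Cre recombinase is driven by the Lyz2 promoter from a coding sequence placed at the start codon of Lyz2, and the allele that carries it makes no lysozyme M. The Cre insertion at Lyz2 and the deletion of Trmt61a sit in the same mice here, and their parts in any difference cannot be told apart.

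All 3 genes lie on chromosome 10 (GRCm38, GENCODE M21). Lyz2 (NCBI Gene 17105) spans 117277331 to 117282321 and Lyz1 (17110) spans 117287797 to 117292868, both on the minus strand. Cpm (70574) spans 117629500 to 117687352 on the plus strand. The lysozyme genes are 5.48 kb apart and Cpm begins 337 kb beyond Lyz1. No other annotated gene overlaps Lyz1 or Lyz2, whereas the gene Gm25709, which has no row in the table, overlaps Cpm.

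The promoters of the lysozyme genes are shown because RNA counted for one was lower, and for the other higher, in KO. Each line holds 300 bases of the minus strand, 250 before and 50 after the start site, from RefSeq on GRCm38.p6, with Lyz2 at chr10:117282223-117282522 and Lyz1 at chr10:117292819-117293118. Capitals mark the bases that differ or are unpaired in an alignment of the pair.
Lyz2: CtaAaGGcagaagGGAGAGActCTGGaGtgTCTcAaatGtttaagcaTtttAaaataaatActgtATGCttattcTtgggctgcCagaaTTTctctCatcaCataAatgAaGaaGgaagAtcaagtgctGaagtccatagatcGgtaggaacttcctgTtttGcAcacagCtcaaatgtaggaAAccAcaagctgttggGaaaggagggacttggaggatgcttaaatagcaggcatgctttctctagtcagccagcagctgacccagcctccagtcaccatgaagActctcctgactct
Lyz1: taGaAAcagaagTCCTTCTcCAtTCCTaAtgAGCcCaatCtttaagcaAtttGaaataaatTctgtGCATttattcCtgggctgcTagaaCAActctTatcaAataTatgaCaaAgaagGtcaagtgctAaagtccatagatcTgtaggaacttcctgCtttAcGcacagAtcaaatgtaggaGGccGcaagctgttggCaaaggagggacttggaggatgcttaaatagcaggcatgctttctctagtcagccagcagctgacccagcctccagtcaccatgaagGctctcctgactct
Of 302 aligned columns, 249 (82.5%) were identical. A run of 86 identical bases began 50 bases before the start site and ended 36 bases after it, which takes in the start codon at base 31 after the start, the place of the Cre insertion in the LysM-Cre allele. All 50 of the 50 bases just before the start were identical, and 28 of the 50 bases farthest from it. The letters TTNNGNAA, a form of the C/EBP recognition sequence, occurred once in each window on the printed strand, as in 40.7% of 32851 promoter windows of this length searched on both strands, but at -55 from the start site in Lyz2 and at -209 in Lyz1. The exact letters GAGGAA, a form of the PU.1 recognition sequence, and TATAAA were in neither window on either strand, against 28.3% and 13.6% of all windows. Other forms of these sites were not searched for, so the windows may hold them.

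The transcribed parts are also alike, which bears on how reads can be assigned. Both genes have 4 exons. The coding sequences, 444 bases each without the stop codon, differed at 22 positions and were identical at 422, and the proteins they encode, of 148 residues, differed at 12 (91.9% identical). Of windows of 50 bases in the Lyz2 transcript (1316 bases), 15.4% occurred unchanged in the Lyz1 transcript (1263 bases), and of windows of 100 bases 1.97% did. No window of 150 bases was shared, and the longest shared stretch was 118 bases, inside the coding sequence. Windows of 31 bases from either gene were found in no other gene's transcripts. The sources used here do not give the read length or say what the counting did with reads that map equally well to both genes. The division of counts between Lyz1 and Lyz2 therefore carries an error that the replicates do not show.

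**Figure D1:**
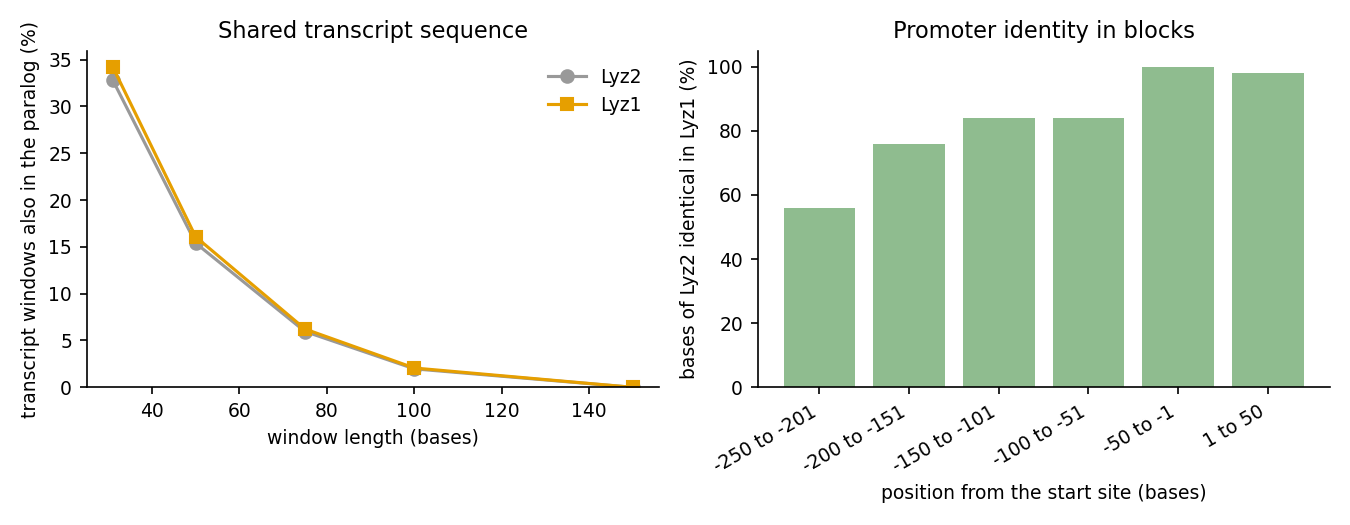
The left panel plots the share of windows of the Lyz2 and Lyz1 transcripts that occur unchanged in the other (%), against window length in bases. The right panel plots the share of Lyz2 promoter bases that are identical in Lyz1 (%) in blocks of 50 bases from the start site. Shared windows go from 32.8% of Lyz2 at 31 bases to none at 150 bases, and all bases are identical in the block just before the start.

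Library totals ran from 18839026 to 20313597 counts. Levels are given as CPM, counts per 1000000 of a library total scaled by TMM, a method that sets most genes to no difference between libraries. Trmt61a had 41, 33 and 50 counts in the KO libraries, against 157, 138 and 148 in the WT libraries, so the targeted gene followed the labels in all 6. Macrophage identity genes (12 listed, such as Cd68, Itgam and C1qa) were detected in every library, and their sum was 17746 to 19181 CPM in KO, against 18051 to 20017 CPM in WT. Over all genes, edgeR called 0 of 12136 as higher in KO (0%) and 2 as lower (0.0165%), Trmt61a and Ckb, at an adjusted p under 0.05. The lower calls numbered 0 without KO replicate 1, KO replicate 3 or WT replicate 3, 1 without WT replicate 1 or 2, and 2 without KO replicate 2. DESeq2 called 8 higher (0.0545%) and 20 lower (0.136%) of 14673 genes.

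Lyz2, the macrophage lysozyme, had 89579, 89277 and 114267 counts in the KO libraries, against 157063, 225600 and 181337 in the WT libraries. Scaled, these were 4652, 4686 and 5632 CPM in KO, against 8014, 11368 and 9038 CPM in WT. Every KO library lay below every WT library, and the spread was wider in WT, where replicate 2 stood highest. The mean was 4990 ± 556 CPM in KO and 9473 ± 1719 CPM in WT (SD, n = 3 each), a KO level of 0.527 of the WT level and a log2 fold change, KO over WT, of -0.92 (SE 0.135). In terms of the library, Lyz2 took 0.475%, 0.460% and 0.563% of all counts in KO, against 0.800%, 1.11% and 0.918% in WT. By number of counts, which also depends on transcript length, it ranked 10, 9 and 7 among all genes in the KO libraries, whereas it ranked 2 in each WT library. Among the 110 genes with a mean of at least 1000 CPM, none had a lower log2 fold change than Lyz2, and the next in size was Ptgs2, the inducible cyclooxygenase, at -0.60. Among the 8576 genes with a mean of at least 10 CPM, 10 had a lower log2 fold change than Lyz2.

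Lyz1, the paralog known from Paneth cells, had 2920, 4054 and 5926 counts in the KO libraries, against 979, 1420 and 794 in the WT libraries. That is 152, 213 and 292 CPM in KO, against 49.95, 71.6 and 39.6 CPM in WT. The lowest KO library was above the highest WT library, and KO replicate 3 was the highest of the 6. The mean was 219 ± 70.4 CPM in KO and 53.7 ± 16.3 CPM in WT (SD, n = 3 each), with a KO level 4.08 times the WT level and a log2 fold change of 2.03 (SE 0.278). The coefficient of variation was 32.2% in KO and 30.4% in WT, wider than for Lyz2 (11.1% in KO and 18.1% in WT). Lyz1 ranked between 594 and 1265 by count in the KO libraries and between 2953 and 4781 in the WT libraries. Of the same 8576 genes, none had a higher log2 fold change than Lyz1.

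Cpm, the carboxypeptidase gene, was near the lower limit of detection, with 31, 22 and 17 counts in the KO libraries, against 10, 8 and 15 in the WT libraries. The levels were 1.61, 1.15 and 0.838 CPM in KO, against 0.510, 0.403 and 0.748 CPM in WT. The groups did not overlap, but the lowest KO library and the highest WT library were 17 and 15 counts. As shares of all counts these were 8.37e-05% in KO replicate 3 (95% Wilson interval 5.23e-05 to 1.34e-04) and 7.60e-05% in WT replicate 3 (4.60e-05 to 1.25e-04), and the intervals, which cover counting error only, overlapped. The mean was 1.20 ± 0.388 CPM in KO and 0.554 ± 0.176 CPM in WT (SD, n = 3 each; log2 fold change 1.10, SE 0.415). The filter on low counts asked for about 0.508 CPM in 3 libraries, which all 3 KO libraries and 2 of the 3 WT libraries reached. The 3 libraries may be of either group. The WT libraries alone would not have let Cpm pass and the KO libraries alone would, whereas Lyz1 and Lyz2 passed in either group. A gene that needs KO libraries to enter tends to show a higher KO level.

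**Figure D2:**
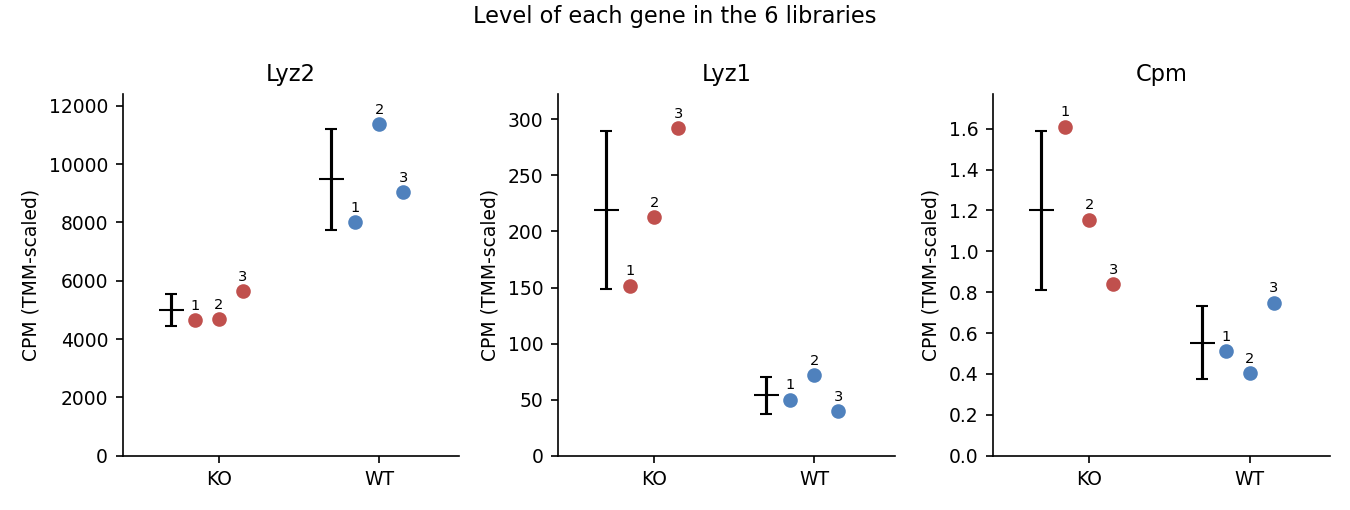
The 3 panels plot the level of Lyz2, Lyz1 and Cpm in CPM (linear axes from 0) in KO and WT libraries. Points are single libraries with their replicate number, and the black bars are the mean and SD of 3. Lyz2 lies between 4652 and 5632 CPM in KO, below all WT libraries, while Lyz1 (152 to 292 CPM in KO) and Cpm (0.838 to 1.61 CPM in KO) lie above them.

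For KO values all above WT values, as in Lyz1 and Cpm, the background was 6.11% of the 12136 tested genes, and for KO values all below WT values, as in Lyz2, it was 6.30%. The members were chosen on the same contrast, so nothing is read from their own count. Within KO, replicate 3 was the highest library for both Lyz2 and Lyz1 and the lowest for Cpm. Within WT, replicate 2 was the highest for both lysozymes and the lowest for Cpm.

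**Figure D3:**
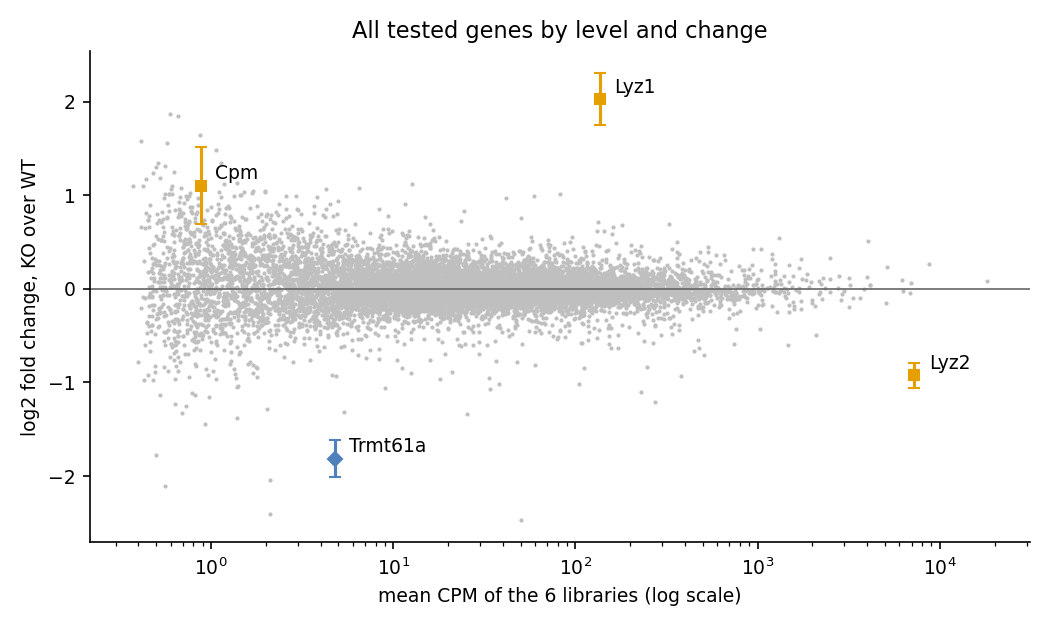
Each grey point is 1 of 12136 tested genes, with the mean CPM of the 6 libraries on a log axis and the log2 fold change, KO over WT, on the other. Squares mark Lyz2, Lyz1 and Cpm and the diamond marks Trmt61a, with SE bars. Lyz2 (-0.92) and Lyz1 (2.03) stand outside the cloud of genes of like level, whereas Cpm (1.10) lies among other genes of low level.

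Levels of different genes were compared per kilobase of the longest coding transcript. On that scale Lyz2 was at 3792 ± 422 CPM per kb in KO and 7199 ± 1306 in WT, and Lyz1 at 173 ± 55.7 CPM per kb in KO and 42.5 ± 12.9 in WT (SD, n = 3 each). Cpm was at 0.231 ± 0.0747 CPM per kb in KO and 0.107 ± 0.0339 in WT. The order Lyz2, Lyz1, Cpm held in both groups, with no overlap between neighbours. The mean of Lyz2 was 21.9 times that of Lyz1 in KO and 169 times in WT.

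The share of Lyz1 in the lysozyme counts, Lyz1 over Lyz1 plus Lyz2, was 3.16% in KO replicate 1 (95% Wilson interval 3.05 to 3.27), 4.34% in replicate 2 (4.21 to 4.48) and 4.93% in replicate 3 (4.81 to 5.05). In WT it was 0.619% in replicate 1 (0.582 to 0.659), 0.625% in replicate 2 (0.594 to 0.659) and 0.436% in replicate 3 (0.407 to 0.467). The KO libraries differed from each other by more than counting error, and all lay above the WT libraries. The mean share was 4.14 ± 0.904% in KO and 0.560 ± 0.108% in WT (SD, n = 3 each), 3.58 percentage points or 7.40 times higher in KO. Per kilobase the shares were 4.31 ± 0.938% in KO and 0.584 ± 0.112% in WT. Expressed as counts of Lyz2 for each count of Lyz1, the values were 30.7, 22.0 and 19.3 in KO, against 160, 159 and 228 in WT.

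The lysozyme total, Lyz1 plus Lyz2, was 4804, 4899 and 5924 CPM in KO, against 8064, 11440 and 9078 CPM in WT. The groups did not overlap. The mean was 5209 ± 621 CPM in KO and 9527 ± 1732 CPM in WT (SD, n = 3 each), so the KO total was 0.547 of the WT total (log2 -0.87). The difference of 4318 CPM was made up almost wholly of Lyz2, which was 4483 CPM lower in KO, while Lyz1 was 165 CPM higher. The Lyz1 difference equalled 3.68% of the Lyz2 difference, so the KO-to-WT ratio of the total was close to that of Lyz2 itself. Adding the pair together removes any error in the division of shared reads between them, though not reads that were dropped because they map to both. Since these are bulk samples, fewer cells that make lysozyme and less lysozyme RNA per cell cannot be told apart.

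**Figure D4:**
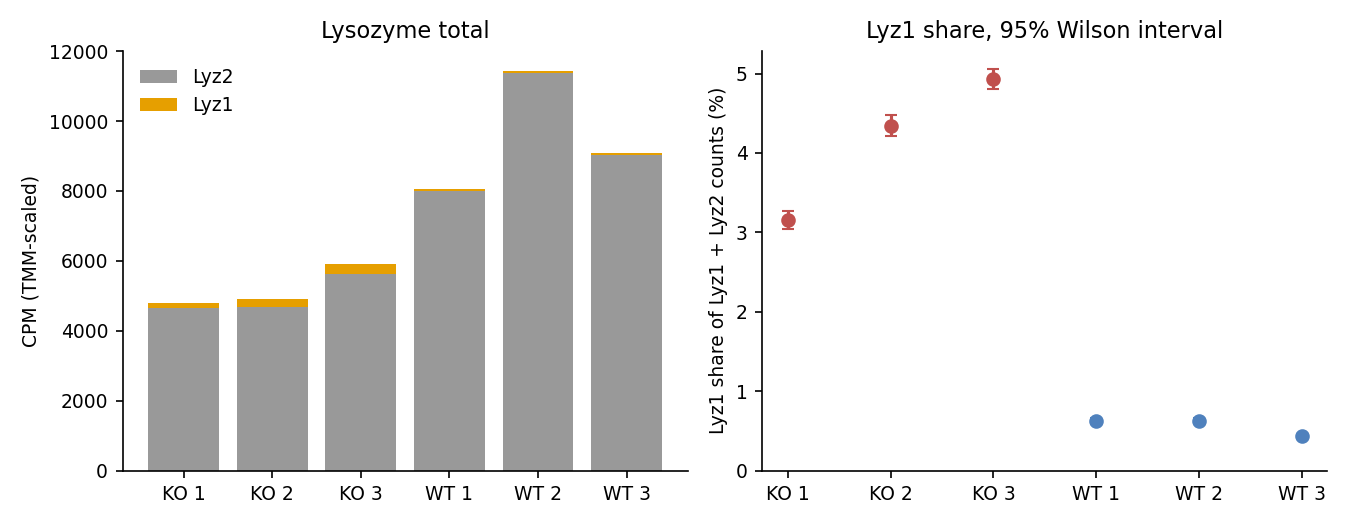
The left panel stacks the CPM of Lyz2 and Lyz1 for each library, from 0. The right panel plots the share of Lyz1 in the lysozyme counts (%) with 95% Wilson intervals. The total is 4804 to 5924 CPM in KO and 8064 to 11440 CPM in WT, and the Lyz1 share is 3.16 to 4.93% in KO and 0.436 to 0.625% in WT.

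Lyz2 is also expressed by neutrophils, so markers of other cells were summed for each library. The sum of 12 neutrophil markers was 132 to 182 CPM in KO, against 85.6 to 119.8 CPM in WT, without overlap. Ly6g, a defining neutrophil marker, was at 0 in 5 of the 6 libraries. Most of the sum was Mmp9 (78.9 ± 41.1 CPM in KO, 39.5 ± 8.48 in WT; SD, n = 3 each) and Csf3r. Each of these overlapped between the groups. Mmp9 was at 46.8 to 125 CPM in KO and 30.7 to 47.7 CPM in WT. Csf3r was at 32.7 to 60.3 CPM in KO and 32.9 to 50.3 CPM in WT. The sum of 9 T and NK cell markers was 161 to 213 CPM in KO, against 124 to 159 CPM in WT, most of it Il7r. Among single tested genes, 6.11% had all KO values above all WT values. Neither list had a member that passed with edgeR (7 and 8 tested) or DESeq2, while at an unadjusted p under 0.05, which 3.86% of all tested genes passed as higher, 4 and 3 did so. Those of smallest p were Ltf (log2 1.87, SE 0.487), Mmp8 (0.55, SE 0.190) and Mmp9 (0.997, SE 0.352) among the neutrophil markers, and Il7r (0.29, SE 0.107), Cd28 (0.88, SE 0.385) and Cd2 (0.98, SE 0.424) among the T and NK markers. The part of these cells in the values of Lyz1 and Lyz2 was not tested. Ltf was at 0.675 to 1.23 CPM in KO and at 0.150 to 0.353 CPM in WT, where the filter asked for about 0.508 CPM. It therefore passed only through the KO libraries, and such a gene tends to show a higher KO level. The 6 monocyte markers overlapped between the groups (367 to 526 CPM in KO, 430.0 to 560.4 CPM in WT), and so did the sums of the dendritic cell, B cell, epithelial or tumour, fibroblast and endothelial markers. Of 8 Paneth cell genes, 7 had a row in the table, and all 7, defensin genes among them, were at 0 in every library in which Lyz1 was counted.

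Genes that lie beside the lysozymes on chromosome 10 were compared by position alone. Within 1 Mb of Lyz2, 19 other genes had a row in the table, and 11 were tested. None of the 11 passed with edgeR (lowest adjusted p = 0.722) or with DESeq2, and 0 had an unadjusted p under 0.05. Over all tested genes edgeR called 0.0165% as lower and 0% as higher. At the unadjusted threshold 3.06% passed as lower and 3.86% as higher, so 0 of 11 says little. In 1 of the 11, Rap1b, all KO values lay below all WT values, as in 6.30% of all tested genes. Their log2 fold changes ran from -0.16 to 0.22 with a median of 0.068, beside -0.000877 over all tested genes. On the Lyz2 side the nearest was Yeats4, a chromatin reader at -52.8 kb (toward lower coordinates), with 37.8 ± 4.84 CPM in KO and 35.8 ± 2.51 CPM in WT (log2 0.078, SE 0.104). Beyond Lyz1 it was Cpsf6, a polyadenylation factor 62.4 kb from Lyz2, at 71.1 ± 3.92 CPM in KO and 70.7 ± 1.56 CPM in WT (log2 0.0086, SE 0.0703). Those with the smallest p were the small GTPase gene Rap1b (-0.16, SE 0.0778), Frs2, an adaptor of growth factor receptors (0.17, SE 0.0944), and Mdm1 (0.22, SE 0.154). Of the 8 neighbours that were not tested, Lrrc10, 9530003J23Rik and Il22 had no count in any library and the others had at most 5.

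**Figure D5:**
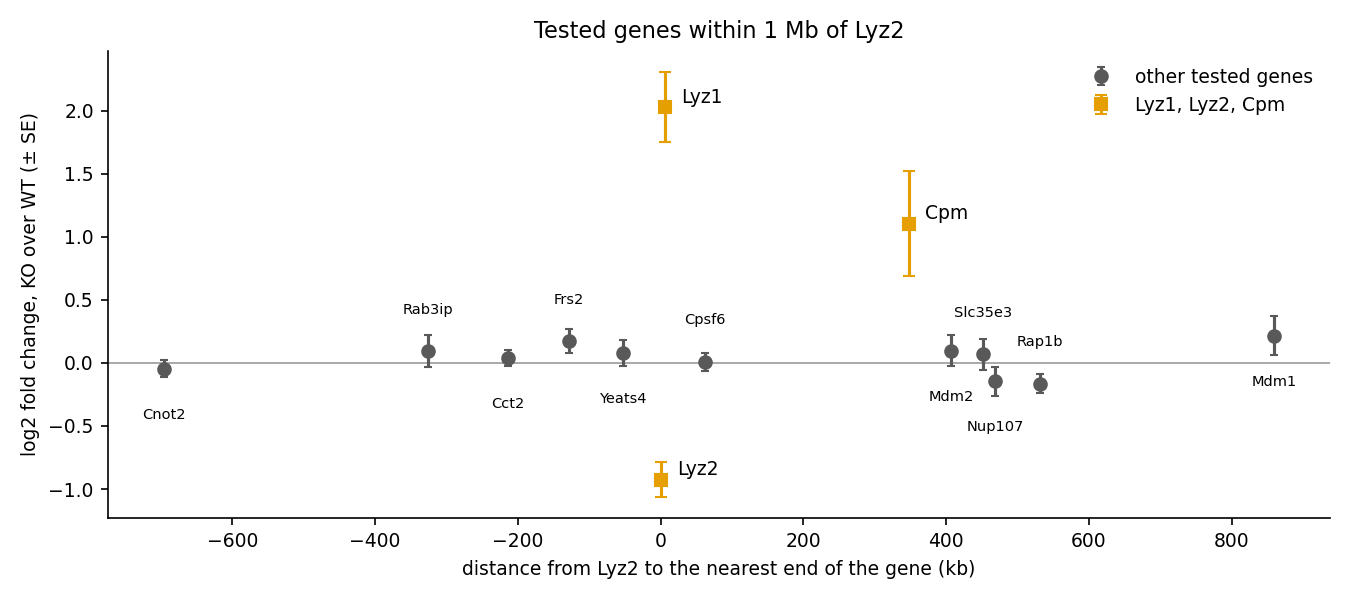
Points are the log2 fold change, KO over WT, with SE, of the tested genes within 1 Mb of Lyz2, against the distance in kb from Lyz2 to the nearest end of the gene. Squares are Lyz2 (-0.92), Lyz1 (2.03) and Cpm (1.10). The 11 other genes lie between -0.16 and 0.22.

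The lists of other genes in the lysozyme system held no called gene. With edgeR calling 0.0165% of all tested genes as lower and 0% as higher, lists of this size would seldom hold one. The 8 other genes of the lysozyme and alpha-lactalbumin family were not tested, with 6 at 0 in every library and a summed level of at most 0.444 CPM in KO and 0.648 CPM in WT, so Lyz1 and Lyz2 held nearly all lysozyme-family counts. Among 16 factors listed for their known or likely part in Lyz2 transcription, 15 were tested, 11 positive and 4 negative, with a median log2 fold change of 0.19. With edgeR 0 passed (lowest adjusted p = 0.701), as with DESeq2. At an unadjusted p under 0.05, 4 were higher in KO, where 3.86% of all tested genes passed as higher. Among those of smallest p were the C/EBP genes Cebpd (17.0 ± 1.54 CPM in KO, 13.0 ± 1.04 in WT) and Cebpb (731 ± 42.6 in KO, 592 ± 94.3 in WT; SD, n = 3 each). Spi1, which encodes PU.1, had a log2 fold change of -0.020 (SE 0.0783) and was chosen for mention after its value was seen.

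Of 32 antibacterial and granule genes of myeloid cells, 25 were tested, with a median of -0.014 and 0 calls with edgeR (lowest adjusted p = 0.694) or DESeq2. At an unadjusted p under 0.05, 3 were higher and 2 lower, where 3.86% of all tested genes passed as higher and 3.06% as lower. Those of smallest p were Ltf, lactoferrin (0.933 ± 0.281 CPM in KO, 0.252 ± 0.102 in WT), Acod1, the itaconate enzyme (146 ± 45.3 in KO, 313 ± 153 in WT), and Mpeg1, a pore-forming protein of macrophages (1456 ± 131 in KO, 1695 ± 94.2 in WT). As said above, Ltf passed the filter only through the KO libraries, which favours a higher KO level. Of 27 lysosomal genes, all tested, 8 were positive and 19 negative with a median of -0.065, and 0 passed with edgeR (lowest adjusted p = 0.701) or DESeq2, with 1 higher at an unadjusted p under 0.05, the cathepsin gene Ctsl (1932 ± 238 CPM in KO, 1546 ± 124 in WT). Ctsz, another cathepsin gene, was at -0.16 (SE 0.0836). Of the 12 macrophage identity genes 0 passed with edgeR (lowest adjusted p = 0.701) or DESeq2, and 2 were lower at an unadjusted p under 0.05. Their smallest p were those of the complement genes C1qc (-0.25, SE 0.0815), C1qa (-0.21, SE 0.0808) and C1qb (-0.19, SE 0.0853).

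Cpm belongs to the carboxypeptidases, of which 24 others were listed and 9 tested. The 9 had a median log2 fold change of -0.062, with 3 positive and 6 negative. With edgeR 0 passed (lowest adjusted p = 0.713), as with DESeq2, and 1, Cpq, a secreted carboxypeptidase, was lower at an unadjusted p under 0.05 (41.5 ± 2.57 CPM in KO, 47.2 ± 2.38 in WT). Of all tested genes, 3.06% passed as lower at that threshold. Scpep1 and Prcp followed, at -0.083 (SE 0.0804) and -0.066 (SE 0.0662). The summed level of the 24 was 1742 to 1862 CPM in KO, against 1830 to 1899 CPM in WT.

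Likeness was measured as Pearson's r of log2 CPM over the 6 libraries, among 8444 named genes of at least 10 CPM for each lysozyme. Because KO and WT stand apart for both lysozymes, a gene whose groups also stand apart gets a high r from that difference. With 6 libraries and so many genes, unrelated genes can also reach a high r, so neither the counts nor the names show shared regulation. Likeness is given as a description without a p. For Lyz2, 45 genes had r over 0.9, led by Ak3 (0.985), a mitochondrial adenylate kinase, Ube2h (0.973), Rpe (0.966), Twsg1 (0.960) and Galnt1 (0.959). The most opposite were Ccng2 (-0.997), Usp32 (-0.994), Gpr107 (-0.991), Commd10 (-0.984) and Dapk3 (-0.979). For Lyz1, 46 genes had r over 0.9, led by Qsox1 (0.979), Oser1 (0.973), Narf (0.971), Nkiras2 (0.968) and Polr1c (0.961). The most opposite to Lyz1 were Hivep1 (-0.996), Ddx6 (-0.982), Nrip1 (-0.970), Med29 (-0.969) and Scaper (-0.969). For Cpm, whose counts are too few for its pattern to be read closely, the most alike were Golm1 (0.985), Mapk8 (0.977), Tmem222 (0.976), Dpagt1 (0.974) and Tmem135 (0.972), and the most opposite Ndufab1 (-0.993), Cpq (-0.989), Myeov2 (-0.989), Taf12 (-0.985) and Coro2a (-0.981). None of these 30 genes passed in the comparison of KO with WT (lowest edgeR adjusted p = 0.694). Ak3, the most like Lyz2, was at 30.03 ± 1.49 CPM in KO and 37.5 ± 1.51 CPM in WT, and Qsox1, the most like Lyz1, at 42.5 ± 0.611 CPM in KO and 38.0 ± 0.369 CPM in WT (SD, n = 3 each), so both differed far less between the groups than the lysozymes did.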

How the data were processed

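The authors deposited raw read counts per gene from bulk RNA sequencing of 6 libraries. Per the labels, the RNA came from a mirVana extraction and the libraries from a TruSeq stranded mRNA kit. Per the submitters' processing notes, Trimmomatic, HISAT2, Cufflinks and HTSeq were used on mm10, with no role or version. Strand setting, read length and the handling of multiply mapped reads are not given in the sources used here. Coordinates and transcripts are those of GENCODE M21 (GRCm38, the same assembly as mm10), which held 94.5% of the table's symbols. Promoters came from RefSeq.

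From the counts, edgeR 4.0.16 in R 4.3.3 was run with a filterByExpr minimum count of 10 and total of 15, leaving 12136 genes, and with TMM factors and a robust quasi-likelihood fit with genotype as the only term. Calls used a Benjamini-Hochberg adjusted p under 0.05 over all tested genes. P-values set the difference between the groups against the spread between libraries, which may be partly technical. Since the labels do not say whether each library came from its own mouse, the p-values may not hold over mice. Depth limits Cpm most, and intervals cover counting error only. The fit was also run on simulated counts with the same variation between libraries for every gene. That does not match genes as variable as Lyz1 and Cpm, nor Lyz2 in WT, so the run does not vouch for the values of the members. Alternatives were other scalings and filters, DESeq2 1.42.0, limma-voom (limma 3.58.1), the replicate number as a block and each library left out in turn.

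The members and lists were chosen with earlier results of these data known. The text names the members, Trmt61a, the nearest tested neighbour on each side of Lyz2 and the 3 neighbours of smallest p within 1 Mb, up to 3 tested genes of smallest p from each list (some are not reported here), and the 5 genes most and least like each member. Marker lists whose sums overlapped between the groups are given without gene names, and Ckb, Ptgs2, Ly6g, Csf3r and Spi1 were named after their values were seen.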

Additional observations from a re-analysis of the deposited data

How the results depend on the processing

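The values of the members moved by less than the spread between replicates in every alternative run. Leaving out 1 of 3 libraries can hardly move a group mean by more than that spread, so those runs say little here. The replicate block leaves the difference in share unchanged by design. The log2 fold change of Lyz2 ran from -1.03 to -0.77, that of Lyz1 from 1.76 to 2.30, that of Cpm from 0.84 to 1.38 and that of the lysozyme total from -0.98 to -0.71. The difference in the Lyz1 share ran from 3.19 to 4.08 percentage points. Cpm has no value with a filter of 1 CPM in 3 libraries, which removed it. The calls among the neighbours of Lyz2 and among the listed genes stayed at 0 in all alternatives. The count of genes called over the whole table did move. DESeq2 called 8 higher and 20 lower, and leaving out 1 library gave 0 to 3 higher and 0 to 2 lower. RLE factors, upper-quartile factors, library totals alone, no filter and limma-voom each called 1 lower, and the filter of 1 CPM in 3 libraries called 0 lower. The cause was not tested. With the replicate number as a replicate block, 1 gene was called lower and 0 higher. Libraries of the same number did not deviate together (r = -0.0574, -0.0941 and -0.109). The labels name no pairing, and these values cannot exclude one. Scaling moved the median of all genes by less than 0.1 on the log2 scale.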
